A study of Mus musculus with 48 samples.

Results

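The 8 genes described here are CXC chemokine genes of the mouse dentate gyrus, namely the 7 ligands Cxcl5, Cxcl9, Cxcl10, Cxcl12, Cxcl13, Cxcl14 and Cxcl16 and the 1 receptor Cxcr4. They were taken by name from the 55357 rows of the deposited gene count table, and all 8 were among the 21390 genes that passed the filter on low counts. Cxcl5 was selected on its measured day 3 counts on both sides, with the side opposite the injection in view, so its day 3 values are a description with no test. Adult wild-type C57BL/6J mice, 6 to 8 weeks old by the series' design text, received kainate or saline by injection into 1 hippocampus, and their dorsal dentate gyri were taken 3, 7 or 14 days later. The injected side is called the epileptogenic zone (EZ) and the opposite side the peri-ictal zone (PIZ). Each of the 12 groups of region, injection and day held 4 libraries, 1 from each of 4 mice (2 male and 2 female, not told apart in the labels), and each of the 24 mice gave both sides. The controls were also injected, so their EZ carries a needle track, and by the study's methods every kainate mouse had a behavioral seizure of Racine stage 3 to 6 and no saline mouse had any. RNA came from whole dissected tissue, in which fewer cells of a type and less RNA per cell cannot be told apart.

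Chemokines are small secreted proteins that bind G protein-coupled receptors and direct the movement of cells. Cxcl5 attracts neutrophils through Cxcr2, Cxcl9 and Cxcl10 are interferon-induced ligands of Cxcr3 on activated T cells, Cxcl13 attracts B cells through Cxcr5, and Cxcl16 is made as a membrane-bound protein that binds Cxcr6. Cxcl12 and its receptor Cxcr4 guide granule cell precursors in the developing dentate gyrus, Ackr3 also binds Cxcl12, and Cxcl14 is expressed by neurons among other cells.

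In GRCm39, Cxcl5 (ENSMUSG00000029371.8) is at chr5:90907186-90909483 on the plus strand, and Cxcl9 (ENSMUSG00000029417.10) at chr5:92469206-92475945 and Cxcl10 (ENSMUSG00000034855.14) at chr5:92494497-92496748 are both on the minus strand. Cxcl13 (ENSMUSG00000023078.7) is at chr5:96104810-96108927 on the plus strand. Cxcl12 (ENSMUSG00000061353.12) is at chr6:117144945-117158328 on the plus strand, Cxcl14 (ENSMUSG00000021508.12) at chr13:56436352-56444603, Cxcl16 (ENSMUSG00000018920.12) at chr11:70344517-70352620 and Cxcr4 (ENSMUSG00000045382.7) at chr1:128515936-128520044, the last 3 on the minus strand. Cxcl10 overlaps Art3, and Cxcl16 overlaps Med11 and Zmynd15, all on the opposite strand, and the authors' counting used strand.

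The 250 bases before the annotated 5′ end of Cxcl5, Cxcl9 and Cxcl10 are shown because these genes are textbook targets of NF-kB or interferon factors. They span chr5:90906936-90907185 (plus strand), chr5:92475946-92476195 (minus strand) and chr5:92496749-92496998 (minus strand) of GRCm39, and capitals mark a motif match.
Cxcl5: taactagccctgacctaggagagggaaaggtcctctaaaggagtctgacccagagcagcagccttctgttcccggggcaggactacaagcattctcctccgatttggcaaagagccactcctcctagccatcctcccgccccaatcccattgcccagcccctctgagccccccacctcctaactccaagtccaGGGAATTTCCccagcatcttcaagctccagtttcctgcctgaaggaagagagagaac
Cxcl9: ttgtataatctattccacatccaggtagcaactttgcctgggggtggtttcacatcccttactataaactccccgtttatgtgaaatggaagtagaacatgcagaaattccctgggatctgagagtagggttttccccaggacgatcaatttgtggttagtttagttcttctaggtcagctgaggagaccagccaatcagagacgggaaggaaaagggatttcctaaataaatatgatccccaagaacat
Cxcl10: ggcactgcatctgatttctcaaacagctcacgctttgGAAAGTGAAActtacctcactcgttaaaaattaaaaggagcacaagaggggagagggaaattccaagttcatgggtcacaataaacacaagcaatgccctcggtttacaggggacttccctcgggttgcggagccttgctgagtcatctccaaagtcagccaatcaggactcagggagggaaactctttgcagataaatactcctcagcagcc
Searched on both strands were the interferon-stimulated response element (GAAA, any 2 bases, GAAA), the gamma-activated site (TTCNNNGAA) and an NF-kB site (GGG, any 2 bases, TTTCC). Cxcl5 held 1 NF-kB match and Cxcl10 held 1 interferon-stimulated response element match, and the other 6 members held none of the 3 motifs in this window. Of 21627 protein-coding promoters of the same length, 3.44% held the interferon-stimulated response element, 7.85% the gamma-activated site and 1.43% the NF-kB letters. A match describes letters only. Sites spelled otherwise were not searched for, so no match here does not mean no site.

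Library totals ran from 17762656 to 25712975 counts. Values are CPM, read counts divided by the library total on a common scale and adjusted for composition by TMM, and differences are log2 fold changes ± standard error from a fit over all 48 libraries. A gene is called changed at a Benjamini-Hochberg adjusted p under 0.01 in edgeR's quasi-likelihood test and a fold change above 1.5. In the EZ at day 14, the kainate library of mouse 27 stood apart from the other 3: it held 82.9% of the group's Cxcl9 counts, 79.2% of Cxcl10, 95.3% of Cxcl13 and 76.2% of Cxcl16. Day 14 EZ values of single members against saline and counts of edgeR calls are therefore given with and without it. Other day 14 EZ counts are with it only. The day 14 EZ calls were also close to the threshold: those of Cxcl9 and Cxcl13 were lost on leaving out any 1 saline mouse (edgeR adjusted p from 0.0117 to 0.0175 for Cxcl9 and from 0.0268 to 0.0344 for Cxcl13), and those of Cxcl10 and Cxcl16 without saline mouse 39 (0.0102 for both) or 31 (0.0108 and 0.0144). Sums of marker genes also set that library apart, the highest of the 4 kainate libraries for 10 of 15 marker lists and the lowest for 3. Microglia markers (7 genes) summed to 2496 CPM in it and to 468 to 644 CPM in the others, astrocyte markers to 11815 against 5760 to 6552, neutrophil markers to 95.9 against 15.7 to 21.3, B cell markers to 82.8 against 26.8 to 34.8 and T cell markers to 8.47 against 2.17 to 3.23. Those of the meningeal fibroblast list summed to 84.3 CPM against 22.2 to 30.3, those of endothelium to 255 against 160 to 173 and those of mural cells to 278 against 187 to 198, and granule cell markers were lower in it, at 441 against 716 to 1251 CPM. Microglia and neutrophil sums were above all 4 saline libraries (380 to 405 and 7.63 to 10.9 CPM) in the other 3 kainate mice as well. Of the 10 neutrophil markers, Ly6g, Elane, Ngp and Retnlg were at 0 in all 4 kainate libraries. The part of the cells of these lists in the day 14 results was not tested.

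**Figure D1:**
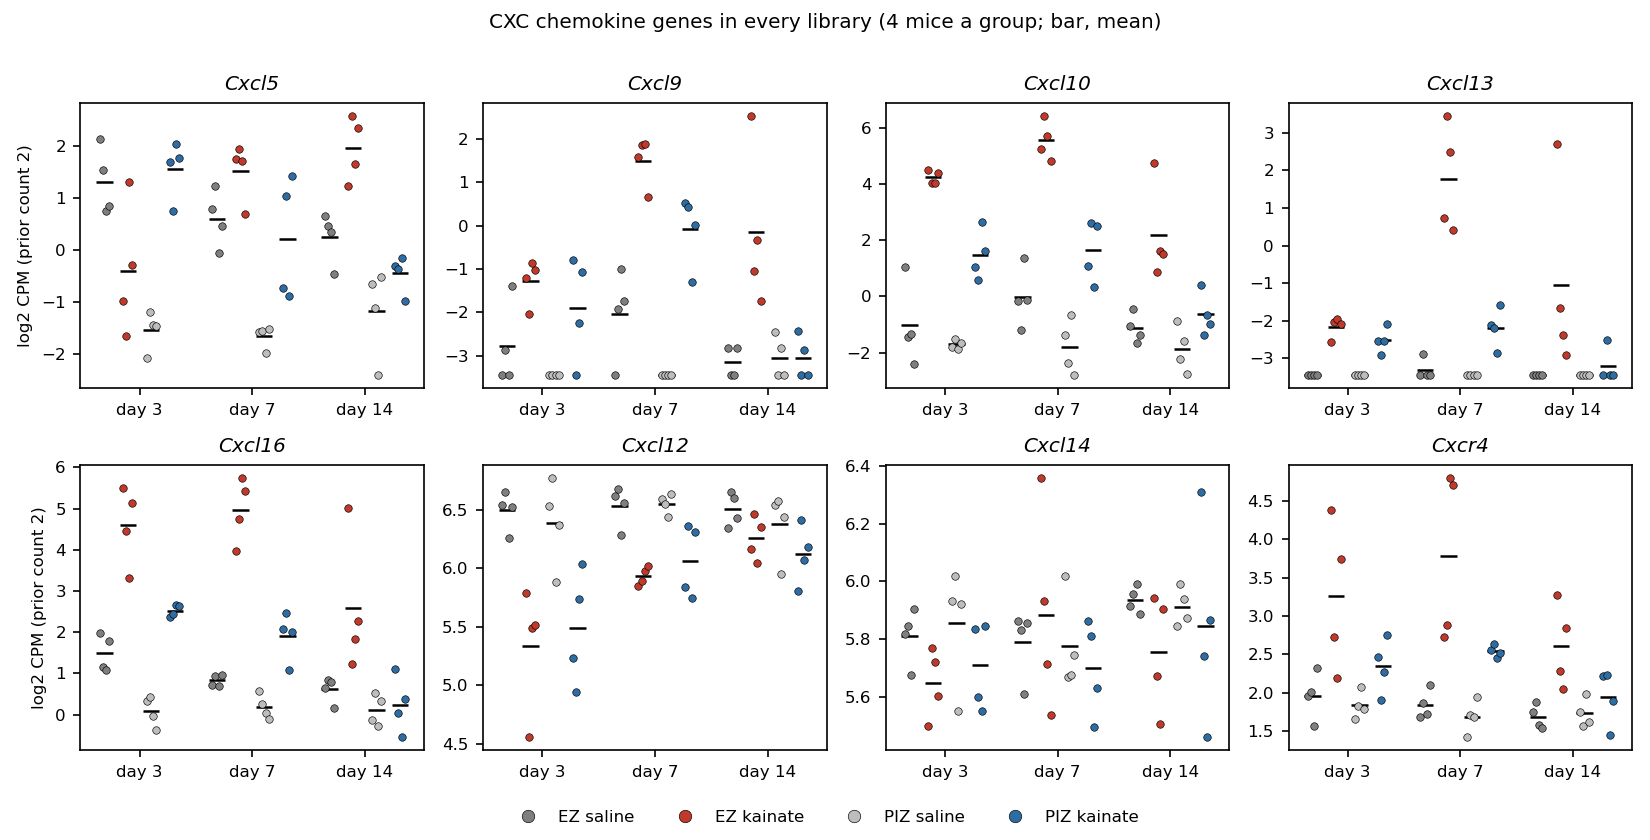
Log2 CPM (prior count 2) of each of the 8 genes in every library, by day, with color for region and injection, 4 libraries a group and a bar at the group mean. Cxcl10 and Cxcl16 stand above the saline groups in the kainate EZ at days 3 and 7, Cxcl12 stands below them, and Cxcl14 lies between 43.9 and 82.0 CPM in all 48 libraries.

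For Cxcl5 the higher side of kainate mice changed with the day. At day 3 in kainate mice it was 0.421, 0.230, 2.40 and 0.725 CPM in the EZ of mice 38, 30, 44 and 42 (11, 6, 57 and 20 counts). The PIZ of those mice held 3.15, 1.6, 4.04 and 3.34 CPM (78, 39, 101 and 70 counts). All 4 kainate mice thus held more Cxcl5 in the PIZ than in the EZ, with log2 differences (EZ minus PIZ) of -2.66, -2.40, -0.73 and -2.07 in that order.

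In saline mice the order was the opposite at day 3. Their EZ held 4.32, 2.81, 1.59 and 1.71 CPM (mice 29, 37, 18 and 41) and their PIZ 0.146, 0.347, 0.279 and 0.273 CPM, or 3 to 8 counts. Kainate and saline libraries of the PIZ did not overlap, with a log2 fold change of 3.50 ± 0.58, whereas in the EZ they overlapped, with a log2 fold change of -1.48 ± 0.49, or -2.49 without kainate mouse 44, the highest of the 4. The EZ change minus the PIZ change was -4.98 ± 0.76, with -5.81 without kainate mouse 44 and -4.44 without saline mouse 29, in a comparison where 0.0655% of all genes were called. These day 3 values chose the gene and carry no test.

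In kainate mice taken later the EZ was the higher side in 3 of 4 at day 7 and in 4 of 4 at day 14. At day 7 the kainate EZ held 3.26, 3.78, 3.17 and 1.53 CPM of Cxcl5 and the PIZ of the same mice (23, 26, 21 and 35) held 0.514, 1.96, 0.453 and 2.59 CPM, with mouse 35 the exception. Each day had its own mice, and against day 3 the day 7 change from saline was higher by 2.42 ± 0.68 on the log2 scale in the EZ (3.43 without kainate mouse 44) and differed by -0.95 ± 0.91 in the PIZ, given with no test since the day 3 values enter both. The day 7 PIZ of kainate mice lay wholly above that of saline mice (0.248, 0.252, 0.164 and 0.260 CPM), by 2.55 ± 0.62 on the log2 scale, which did not reach the call (edgeR quasi-likelihood, Benjamini-Hochberg adjusted p = 0.027). In the EZ at day 7 the log2 difference from saline (1.65, 2.26, 0.868 and 1.29 CPM) was 0.94 ± 0.47 (adjusted p = 0.0857 by the same edgeR test), and the groups overlapped.

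At day 14 the kainate EZ held 2.27, 5.90, 3.08 and 5.01 CPM of Cxcl5 (mice 27, 36, 14 and 40), above all 4 saline values of 1.48, 1.30, 1.18 and 0.640 CPM. The log2 fold change was 1.81 ± 0.49 and was not called (edgeR adjusted p = 0.0184). Without mouse 27 the kainate mean was 4.66 ± 1.45 CPM (SD, n = 3), and the pooled counts were 4.04 times those of saline mice after scaling for library size. The PIZ at that day held 0.717, 0.683, 0.816 and 0.420 CPM against 0.544, 0.375, 0.0979 and 0.605 CPM in saline mice (0.71 ± 0.61, edgeR adjusted p = 0.968), and the groups overlapped. Over the 12 groups ordered by mean Cxcl5, from 4.06 ± 1.68 CPM in the day 14 kainate EZ to 0.231 ± 0.0446 CPM in the day 7 saline PIZ (SD, n = 4), 0 of 11 neighbouring groups were free of overlap.

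**Figure D2:**
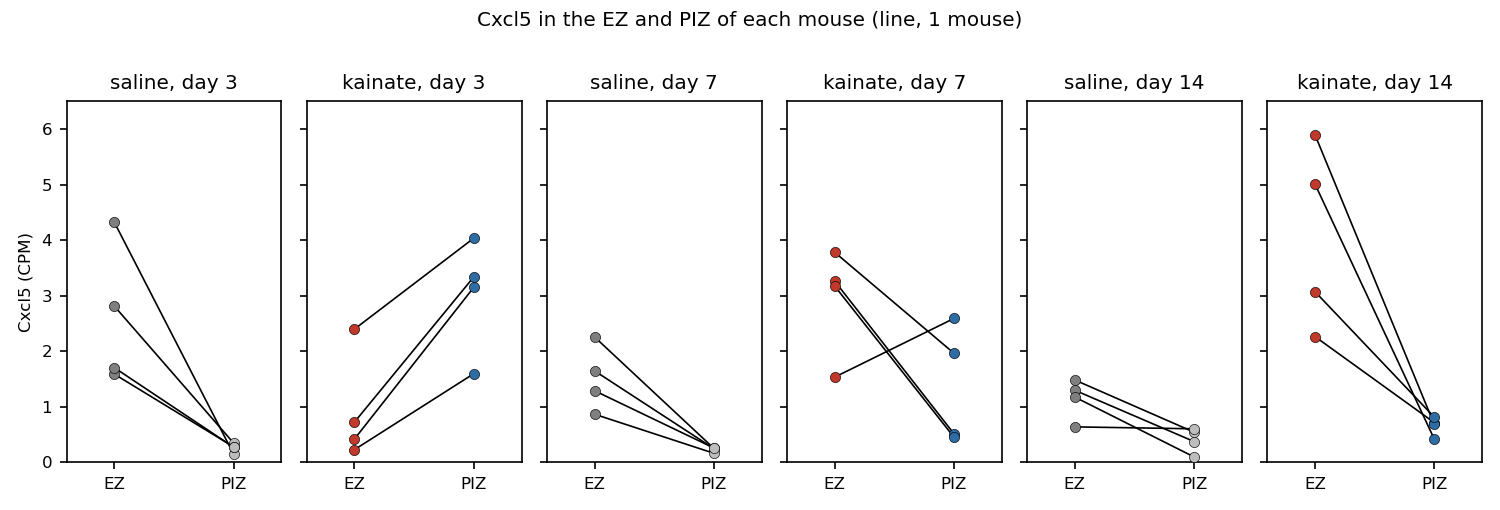
Cxcl5 in the EZ and the PIZ of each mouse (CPM, linear axis from 0), a line joining the 2 sides of a mouse, in a panel for each injection and day. Lines rise from the EZ to the PIZ in 4 of 4 kainate mice at day 3, and the EZ is the higher side in 4 of 4 saline mice on every day.

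The saline sides also differed in Cxcl5 after day 3. The saline EZ was wholly above the saline PIZ at day 7 (log2 difference 2.69 ± 0.62) and at day 14 (1.5 ± 0.58), neither called by the edgeR test (adjusted p = 1 for both). Cxcl16 was also wholly higher in the saline EZ at day 3 (2.03 to 3.87 against 0.683 to 1.26 CPM) and day 7 (1.53 to 1.86 against 0.831 to 1.39 CPM). Its log2 difference was 1.51 ± 0.57 at day 3 (edgeR adjusted p = 0.604) and 0.66 ± 0.60 at day 7, neither called. At day 14 its sides overlapped. Across all genes the saline sides had 0.0281% of genes called at day 3, 0% at day 7 and 0% at day 14. At day 7 no member was called, 3 had an unadjusted p under 0.05, and DESeq2 (0.00237% of genes) and limma-voom (0%) called 0. At day 14 no member was called, 1 had an unadjusted p under 0.05, and both other tools called 0 (0% of genes for each). Of 15 marker lists, the sums of 4 were wholly higher in the saline EZ than in the PIZ at day 3, where the sides did not overlap for 7.88% of all genes. These were microglia (489 to 797 against 292 to 401 CPM, with 7 of 7 genes wholly higher), neutrophils (11.8 to 25.1 against 4.78 to 9.02), B cells (17.9 to 35.4 against 7.94 to 15.7) and astrocytes (6550 to 9377 against 4780 to 6304). Choroid plexus sums were wholly lower there (21.2 to 25.6 against 28 to 32.4 CPM). Of the 10 neutrophil markers, Ly6g, Elane, Camp and Ngp were at 0 in the saline EZ at day 3, and Camp at day 7. The saline EZ also had wholly higher microglia sums at day 7 (414 to 452 against 301 to 385 CPM) and day 14 (380 to 405 against 313 to 352) and wholly higher neutrophil sums at day 7 (9.98 to 13.9 against 7.07 to 8.36). The part of these cells in the Cxcl5 values was not tested.

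Cxcl10 rose in the kainate EZ at day 3 and day 7 and in the PIZ at day 3. In the EZ at day 3 it was 22.3, 16.3, 16.1 and 21 CPM against 1.98, 0.277, 0.309 and 0.0974 CPM in saline mice, a log2 fold change of 4.80 ± 0.74 (edgeR quasi-likelihood, Benjamini-Hochberg adjusted p = 3.26e-06). Without saline mouse 29, the highest of its group, it was 6.33. At day 7 it was 37.6, 85.8, 52.2 and 28.3 CPM against 0.800, 0.347, 2.5 and 0.826 CPM (5.53 ± 0.74, edgeR adjusted p = 1.19e-07), and 6.28 on the log2 scale without saline mouse 20. The groups did not overlap on either day. At day 14 mouse 27 held 26.9 CPM and the other 3 kainate mice 1.74, 2.97 and 2.76 CPM, against 0.226 to 0.649 CPM in saline mice. With mouse 27 the log2 fold change was 4.45 ± 0.80 (edgeR adjusted p = 0.000872), and without it 2.67 (edgeR adjusted p = 0.193).

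On the opposite side Cxcl10 was lower than in the EZ in 4 of 4 kainate mice on each day. At day 3 the PIZ held 1.98, 1.39, 6.23 and 3.01 CPM against 0.194, 0.260, 0.186 and 0.228 CPM in saline mice, without overlap, and the log2 fold change of 3.82 ± 0.88 was called (edgeR adjusted p = 0.00163). It was 3.24 without kainate mouse 44, and then not called (edgeR adjusted p = 0.0143). At day 7 the PIZ values were 2.01, 6.02, 1.18 and 5.62 CPM against 0.297, 0.101, 0.548 and 0.0519 CPM, wholly higher but not called (3.89 ± 0.88, edgeR adjusted p = 0.0174; 4.56 without saline mouse 20). Day 14 gave 1.45 ± 1.05 (edgeR adjusted p = 0.949), with 2.07 without saline mouse 24 and 0.89 without kainate mouse 27.

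Cxcl9, the related Cxcr3 ligand, was near 0 in saline libraries, with 28 counts in all 24 and none in 15 of them. The day 7 kainate EZ was the only group in which all 4 libraries reached the filter's minimum, and there it had 57, 91, 92 and 36 counts (2.91, 3.55, 3.61 and 1.49 CPM) against 0, 4, 8 and 4 in saline mice. The log2 difference was 3.86 ± 0.83, given as a description with no test because that group alone would have let Cxcl9 pass the filter, and was 4.46 without saline mouse 20, which held 8 of the 16 saline counts. At day 3 the kainate EZ had 9, 4, 11 and 11 counts of Cxcl9 against 0, 1, 0 and 6 (1.99 ± 1.09, edgeR adjusted p = 0.133), and without saline mouse 41 the log2 difference was 4.05. Day 14 gave 126 counts in mouse 27 and 7, 14 and 5 in the others against 2 counts over the saline group, a ratio of 75.1 with an exact 95% counting interval of 20.4 to 626 (edgeR adjusted p = 0.00194). Without mouse 27 the Cxcl9 ratio was 17.5 (26 against 2 counts, exact interval 4.37 to 152), and the call was lost (edgeR adjusted p = 0.288).

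In the PIZ the Cxcl9 counts were 12, 0, 3 and 8 at day 3 and 29, 30, 7 and 19 at day 7, where both saline groups had none. Against 3 counts over the saline group Cxcl9 was at least 7.02-fold higher at day 3 and at least 24.9-fold higher at day 7, and neither was called (edgeR adjusted p = 0.0393 and 0.0174). Mouse 38 held 12 of the 23 day 3 counts, and without it Cxcl9 was at least 4.54-fold higher. Counting intervals and floors cover counting error only.

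Cxcl13 had 1 count in all 24 saline libraries. The kainate EZ had 2, 4, 4 and 4 counts at day 3, which is at least 3.92-fold above 3 counts over the saline group. It reached 31, 279, 141 and 30 counts at day 7 (1.58, 10.9, 5.53 and 1.24 CPM), the only group through which Cxcl13 passed the filter. Against 1 saline count the day 7 ratio was 422 with an exact 95% counting interval of 75.4 to 16703, again with no test. Mouse 26 held 279 of the 481 kainate counts, and without it the Cxcl13 ratio was 243 with an exact interval of 43.1 to 9640.

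At day 14 Cxcl13 had 142 counts in mouse 27 and 4, 2 and 1 in the other kainate mice. The group was at least 49.1-fold above 3 counts over the saline group and was called (edgeR adjusted p = 0.00805), and without mouse 27 it was at least 3.13-fold above that floor and not called (edgeR adjusted p = 0.864). In the PIZ, Cxcl13 had 8 counts over the day 3 kainate group, 12 at day 7 and 2 at day 14, against 0 in every saline PIZ library.

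Cxcl16 rose in the kainate EZ at days 3 and 7 and in the PIZ at day 3. Its day 3 EZ values were 44.9, 22.0, 9.93 and 35 CPM against 3.87, 2.12, 2.03 and 3.36 CPM, without overlap, a log2 fold change of 3.30 ± 0.52 (edgeR adjusted p = 3.95e-06). At day 7 they were 15.6, 26.9, 53.5 and 42.9 CPM against 1.55, 1.82, 1.53 and 1.86 CPM, again without overlap (4.35 ± 0.55, edgeR adjusted p = 5.89e-08). Mouse 27 held 32.3 CPM at day 14 and the other kainate mice 2.25, 3.48 and 4.72 CPM, against 1.03 to 1.70 CPM in saline mice. The day 14 log2 fold change was 2.87 ± 0.54 with mouse 27 (edgeR adjusted p = 0.00119) and 1.26 without it (edgeR adjusted p = 0.427).

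In the PIZ at day 3 Cxcl16 was 5.09, 5.32, 6.19 and 6.11 CPM against 1.17, 1.26, 0.882 and 0.683 CPM. The groups did not overlap and the log2 fold change of 2.5 ± 0.56 was called (edgeR adjusted p = 0.00114). Day 7 held 4.16, 5.43, 2.04 and 3.89 CPM against 0.831 to 1.39 CPM, wholly higher but not called (1.86 ± 0.57, edgeR adjusted p = 0.0862). At day 7 the EZ change of Cxcl16 exceeded the PIZ change by 2.5 ± 0.78, which was not called (edgeR adjusted p = 0.0167).

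Cxcl12 fell in the EZ at days 3 and 7 and in the PIZ at day 3. The kainate EZ held 55.4, 23.4, 44.9 and 45.6 CPM at day 3 against 93.2, 101, 76.6 and 92.2 CPM in saline mice, wholly lower, and the log2 fold change was -1.10 ± 0.20 (edgeR adjusted p = 2.86e-05), a call that was lost when the test was against a fold change of 1.5 (edgeR glmTreat, adjusted p = 0.0127). Day 7 gave 57.6, 59.2, 62.9 and 64.9 CPM against 98.4, 102, 78.1 and 94.2 CPM, also wholly lower (-0.61 ± 0.20, edgeR adjusted p = 0.00832), and this call was lost on leaving out any 1 of 7 of the 8 mice (edgeR adjusted p from 0.0160 to 0.0278), with glmTreat (0.543), with library size only (0.0280) and with limma-voom (0.0494). At day 14 the EZ groups overlapped (-0.24 ± 0.20, edgeR adjusted p = 0.546), and without mouse 27 the kainate mean was 78.8 ± 11.4 CPM (SD, n = 3).

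The PIZ held 37.5, 30.8, 53.2 and 65.6 CPM of Cxcl12 at day 3 against 92.6, 109, 59.0 and 82.6 CPM. These groups overlapped, and the log2 fold change of -0.88 ± 0.20 was called (edgeR adjusted p = 0.00129), except without saline mouse 37 (edgeR adjusted p = 0.0117), with only the groups compared in the fit (0.0190) or with glmTreat (0.254). Cajal-Retzius cells are 1 known source of Cxcl12 in the dentate gyrus among others, and were named here after their values were seen. Of their 6 markers, 3 fell in the EZ at day 3 (Trp73, Reln and Ndnf), with sums of 24.1 to 56.6 CPM against 94.7 to 111 CPM in saline mice, where 24.7% of all genes were called. In the PIZ at day 3, 0 of the 6 were called (8.69% of all genes), with sums of 76.7 to 107 against 99.4 to 127 CPM. Other neuron markers also fell in the EZ at day 3, namely 5 of 7 interneuron markers (230 to 420 CPM summed against 476 to 705) and 2 of 6 granule cell markers (408 to 766 against 895 to 1121), and 1 granule cell marker and 0 interneuron markers fell in the PIZ, where interneuron sums were 495 to 545 against 575 to 857 CPM. At day 7, when Cxcl12 was 53.7 to 82.0 CPM in the kainate PIZ against 86.8 to 99.3 CPM and not called (-0.47 ± 0.20, edgeR adjusted p = 0.253), Cajal-Retzius sums overlapped in the EZ (77.9 to 138 against 83.5 to 104 CPM) and were wholly higher in the PIZ (112 to 130 against 81.7 to 110 CPM). In the EZ at day 3 endothelium sums were wholly higher (220 to 365 against 171 to 207 CPM) and astrocyte sums overlapped (8380 to 10070 against 6550 to 9377 CPM). The part of these cells in the Cxcl12 values was not tested.

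Cxcl14, measured at a high level in every library, did not pass the test. Its group means ran from 50.2 to 61.2 CPM and it was called in none of the 6 kainate comparisons by the edgeR test. The log2 fold changes were -0.16 ± 0.14 in the EZ at day 3 (edgeR adjusted p = 0.342) and 0.12 ± 0.14 at day 7. At day 14 the EZ log2 fold change was -0.17 ± 0.14 (edgeR adjusted p = 0.543), and -0.23 without mouse 27.

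Cxcr4, the receptor for Cxcl12, rose in the kainate EZ at days 3 and 7. At day 3 it was 20.8, 6.5, 4.46 and 13.3 CPM (mice 38, 30, 44 and 42) against 3.78, 3.92, 2.87 and 4.92 CPM, with overlap, a log2 fold change of 1.54 ± 0.35 (edgeR adjusted p = 0.000487). Without kainate mouse 38 it was 1.07 and not called (edgeR adjusted p = 0.0150), nor was it called with only the groups compared (0.0179). At day 7 Cxcr4 was 6.53, 7.29, 27.8 and 26.1 CPM against 3.11, 3.56, 3.22 and 4.18 CPM, without overlap (2.27 ± 0.36, edgeR adjusted p = 2.17e-06). At day 14 it was 9.56, 4.78, 4.03 and 7.06 CPM against 2.81 to 3.60 CPM, wholly higher but not called (1.02 ± 0.36, edgeR adjusted p = 0.0974), and the log2 fold change was 0.76 without mouse 27. The PIZ changes were 0.54 ± 0.36 at day 3 (edgeR adjusted p = 0.287) and 0.86 ± 0.36 at day 7 (edgeR adjusted p = 0.252).

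**Figure D3:**
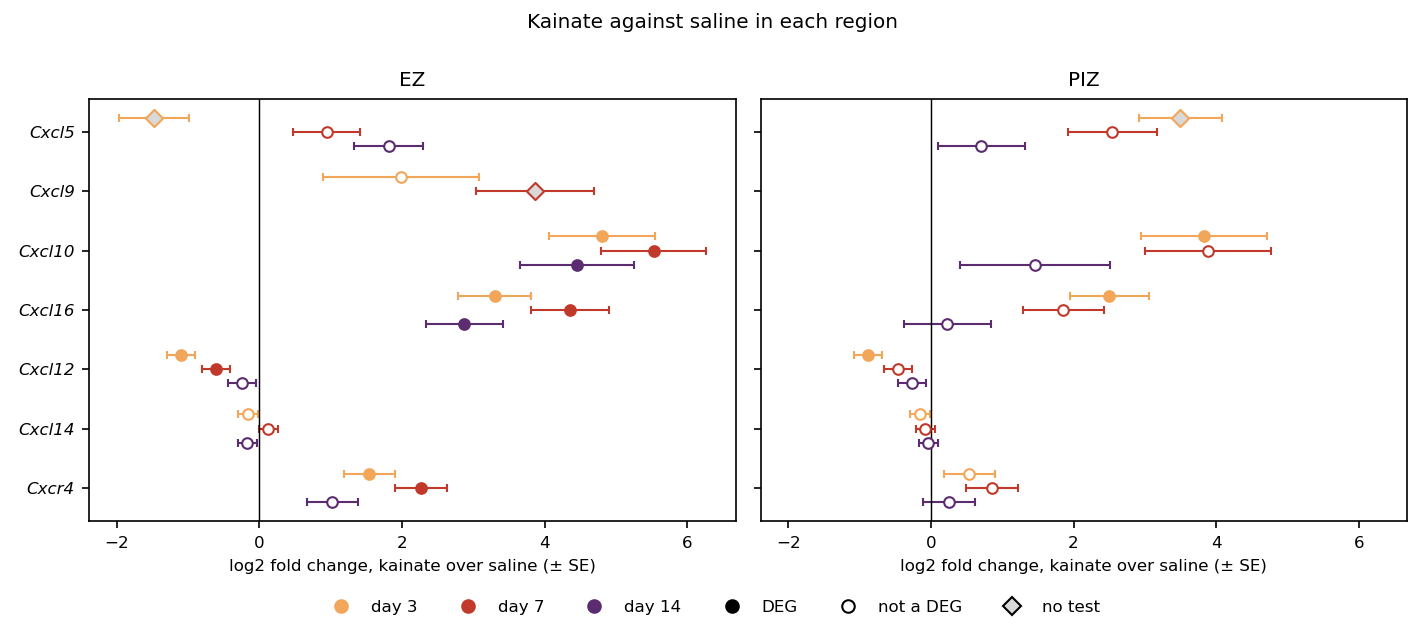
Log2 fold change of kainate against saline with its standard error in the EZ and the PIZ at days 3, 7 and 14, filled where the change was called. Cxcl13 and comparisons whose saline group had 3 or fewer counts are left out, and the day 3 values of Cxcl5 and the EZ day 7 value of Cxcl9 are drawn as grey diamonds without a test; Cxcl10 reaches 5.53 in the EZ at day 7 and Cxcl12 reaches -1.10 in the EZ at day 3.

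Set against all genes, the members' calls were as follows. In the EZ at day 3, 4 of 8 members were called where 24.7% of all genes were. At day 7 it was 6 of 8 against 32.5%, a count that includes Cxcl9 and Cxcl13, for which that same group met the filter, and at day 14 it was 4 of 8 against 2.36%, or 0 of 8 without kainate mouse 27, saline mouse 39 or saline mouse 31. In the PIZ at day 3 Cxcl10, Cxcl12 and Cxcl16 were called among the 7 members other than Cxcl5, where 8.69% of all genes were. PIZ day 7 had 0 members called against 0.201%, although 6 had an unadjusted p under 0.05. PIZ day 14 had 0 called against 0.014%, with 0 at an unadjusted p under 0.05. Kainate and saline libraries did not overlap for 4 members in the EZ at day 3 (42.4% of all genes), 6 at day 7 (43.8%) and 6 at day 14 (8%). In the PIZ they did not overlap for 4 members at day 3 (30.7%), 7 at day 7 (12.9%) and 0 at day 14 (7.18%). The saline sides did not overlap for 2 members at day 3 (7.88%), 2 at day 7 (3.06%) and 1 at day 14 (3.79%). The day 3 counts include Cxcl5 where its groups were apart, and since the day 7 kainate EZ was the only group to meet the filter for 2 of the members, these shares describe the genes and support nothing.

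The other tools gave other counts, set here beside the share of all genes that each tool called. Limma-voom, in which each library carried a quality weight, called 7 members in the EZ at day 3 (32.8% of all genes), the 4 of edgeR with Cxcl9, Cxcl13 and Cxcl5, for which this is no test, 5 at day 7 (36.3%) and 1 at day 14 (0.271%). In the PIZ it called 4 at day 3 (13%), 4 at day 7 (3.84%) and 0 at day 14 (0.449%). DESeq2, its shares taken over the genes given an adjusted p, called 4 in the EZ at day 3 (19.2%), 6 at day 7 (24.9%) and 5 at day 14 (3.06%), and in the PIZ 5 at day 3 (8.29%), 3 at day 7 (0.875%) and 0 at day 14 (0.044%). The 1 member called by limma-voom in the EZ at day 14 was Cxcl5, which was also among the 5 of DESeq2. Both tools called Cxcl5, Cxcl9 and Cxcl10 in the PIZ at day 7. The day 3 counts of both tools in the PIZ include Cxcl5, for which they are no test. Their day 7 counts in the EZ include Cxcl9 and Cxcl13, for which that same group met the filter, and are no test of them.

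Differences between the sides and between days were tested in the same fit. The EZ change minus the PIZ change called 0 members at day 7, where 9.89% of genes were called, with 3 at an unadjusted p under 0.05, 1 by DESeq2 (11.5% of genes) and 3 by limma-voom (24%). At day 14 it called 0 against 0% of genes, with 3 at an unadjusted p under 0.05 and 0 by DESeq2 (0.00818%) and limma-voom (0%). Without kainate mouse 27 it also called 0 at day 14. Cxcr4 differed between the sides by 1.41 ± 0.50 at day 7 (edgeR adjusted p = 0.0351). Between day 3 and day 7 the EZ change called 0 members (0.145% of genes), with 1 at an unadjusted p under 0.05, 0 by DESeq2 (0.536%) and 2 by limma-voom (5.73%). That 1, also among the 2 of limma-voom, is Cxcl5, whose day 3 values chose it, so for Cxcl5 this is no test. From day 7 to day 14 it called 0 (0.271% of genes), with 1 at an unadjusted p under 0.05, 0 by DESeq2 (3.77%) and 4 by limma-voom (29.5%). Without kainate mouse 27 edgeR called 1 member there, a count given without its share of all genes. The PIZ change called 0 members between day 3 and day 7 (0.0234% of genes), with 0 at an unadjusted p under 0.05, 0 by DESeq2 (0.158%) and 0 by limma-voom (0.659%). Between day 7 and day 14 it called 0 (0% of genes), with 2 at an unadjusted p under 0.05, 0 by DESeq2 (0.00237%) and 0 by limma-voom (0.014%).

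For levels between genes, CPM were divided by exonic length in kilobases. In the saline EZ at day 3 the order was Cxcl14 (16.4 CPM per kb), Cxcl12 (10.9), Cxcr4 (2.13), Cxcl5 (1.38), Cxcl16 (0.556), Cxcl10 (0.296), Cxcl9 (0.0280) and Cxcl13 (0). In the kainate EZ at day 7 the mean of Cxcl10 was 22.6 ± 11.2 CPM per kb (SD, n = 4) and that of Cxcl14 17.6. Cxcl10 was the higher of the 2 in 2 of 4 mice, and without mouse 26 the means were 17.5 and 17.6 CPM per kb.

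Most other CXC genes were near 0. Of 15 other ligands and receptors only Pf4, Ackr1 and Ackr3 passed the filter, and Cxcl15 had 0 counts in all 48 libraries. Pf4 rose in the EZ at day 3, with 79, 19, 24 and 59 counts against 11, 9, 7 and 10 (2.01 ± 0.45, edgeR adjusted p = 0.000393), and at day 7, with 10, 13, 62 and 55 against 8, 9, 5 and 8 (1.99 ± 0.47, edgeR adjusted p = 0.000456). Ackr3 was not called at day 7 in the EZ (-0.50 ± 0.21, edgeR adjusted p = 0.0449), nor was Ackr1, which shares its strand with the overlapping Cadm3 and is uncertain. In the PIZ Ackr1 was wholly above saline at day 3 (means 43.7 and 28.7 CPM) and day 14 (32.5 and 27.2 CPM). Neither difference was called (0.61 ± 0.19 and 0.26 ± 0.19, edgeR adjusted p = 0.0201 and 0.962). Cxcr2, the receptor for Cxcl5, had 18, 8, 1 and 20 counts in the kainate EZ at day 3 and 1, 2, 3 and 3 in the kainate PIZ. Cxcl1, another Cxcr2 ligand, had 34, 13, 25 and 8 counts in that EZ group and 1, 2, 3 and 3 in the PIZ. Counts of Cxcr3 reached 18, those of Cxcr5 4 and those of Cxcr6 31 in any library.

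Genes that act before and after the chemokines were called in the EZ at days 3 and 7 and in the PIZ at day 3. Of 14 tested genes of the IL-1, TNF and IL-17 list, 11 rose and 0 fell in the EZ at day 3 (median log2 fold change 1.35, against 0.03 for all genes, of which 24.7% were called) and 6 rose in the PIZ at day 3 (median 1.05, against 0.02, with 8.69% of all genes called). Tnfrsf1a, the TNF receptor, rose by 2.24 ± 0.35 in the EZ and 2.03 ± 0.36 in the PIZ. Of 11 tested interferon-pathway genes 6 rose in the EZ at day 7 (median 1.46, against 0.01, with 32.5% of all genes called), among them Ifngr1 (2.11 ± 0.27), and 5 in the PIZ at day 3 (median 0.55). Of 20 genes of CXC receptor signaling 11 rose and 3 fell in the EZ at day 7 (median 0.64), the comparison with 32.5% of all genes called, and of 7 chemokine-processing proteases 6 rose (median 1.5). None of these 4 lists had a gene called in the PIZ at day 7 or 14, where 0.201% and 0.014% of all genes were.

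Markers of other cells moved with several members. The 7 microglia markers summed to 1124 to 1857 CPM in the kainate EZ at day 3 and 1406 to 4947 CPM at day 7, against 489 to 797 and 414 to 452 CPM in saline mice, with 5 and 7 of 7 called where 24.7% and 32.5% of all genes were. In the PIZ they summed to 867 to 1046 CPM at day 3 against 292 to 401, with 7 of 7 called (8.69% of all genes), and to 390 to 729 CPM at day 7 against 301 to 385, with 0 called (0.201%). In that day 7 comparison the groups did not overlap for 12.9% of all genes. Sums of 5 further lists were also wholly higher there and those of 1 wholly lower, with 0 genes called in each. They were neutrophils (13.6 to 30.3 against 7.07 to 8.36 CPM), T cells (2.57 to 3.13 against 1.24 to 2.27), meningeal fibroblasts (40.2 to 126 against 22.2 to 31.3), immature neurons (163 to 195 against 80.7 to 119), Cajal-Retzius cells (112 to 130 against 81.7 to 110) and, lower, granule cells (385 to 901 against 979 to 1207). Of the neutrophil markers, Ly6g, Elane and Camp were at 0 in the kainate PIZ at day 7. In the day 7 kainate EZ the order of mice by microglia markers (21, 35, 26, 23) was also that of Cxcl16 and Cxcr4, whereas Cxcl10 and Cxcl13 were highest in mouse 26. At day 3 the microglia order was 38, 42, 44, 30, and both Cxcl16 and Cxcr4 ran 38, 42, 30, 44. Of the 15 marker lists, the sums of 3 had the order of Cxcl16 and Cxcr4 on both days, those of meningeal fibroblasts, mural cells and T cells. The fibroblast sums were 283, 123, 85.3 and 59.9 CPM for mice 38, 42, 30 and 44 and 249, 196, 46.4 and 36.1 CPM for mice 21, 35, 26 and 23. In all, 4 lists had that order at day 3 and 6 at day 7, and the day 7 granule cell sums had its exact reverse (938, 873, 297 and 177 CPM for mice 23, 26, 35 and 21), as did the day 3 astrocyte sums (10070, 9730, 8415 and 8380 CPM for mice 44, 30, 42 and 38).

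Sums of other marker lists are given beside the share of all genes whose kainate and saline libraries did not overlap. Of the 15 lists, 5 had sums wholly above saline in the EZ at day 3 and 3 wholly below (42.4% of all genes). Day 7 had 6 such lists above and 1 below (43.8%), whereas day 14 had 2 above, microglia and neutrophils, and 0 below (8%). The meningeal fibroblast sums of saline mice were 27.5 to 50.3 CPM at day 3 and 22.1 to 32.6 CPM at day 7. At day 7 the 6 astrocyte markers summed to 11515 to 13066 CPM in the EZ against 5343 to 5999, with 3 called where 32.5% of all genes were, and the 7 interneuron markers to 192 to 443 against 533 to 668 CPM, with 4 that fell. At day 3 the endothelium markers summed to 220 to 365 CPM in the EZ against 171 to 207, and the mural cell markers to 248 to 482 CPM against 206 to 221, with 3 of 6 called in each where 24.7% of all genes were. T cell markers, of which 3 of 8 were tested, summed to 2.40 to 3.56 CPM in the EZ at day 3 against 1.80 to 2.09 and to 3.06 to 7.96 CPM at day 7 against 1.65 to 2.13.

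On the PIZ side at day 3 the sums of 4 lists were wholly above saline, those of microglia, neutrophils, B cells and astrocytes, and the sums of 2 were wholly below, those of interneurons and red blood cells (118 to 151 against 168 to 237 CPM). In that comparison the groups did not overlap for 30.7% of all genes. The 10 neutrophil markers summed to 32.1 to 44 CPM against 4.78 to 9.02 CPM, and Elane and Camp were at 0 there. The 6 B cell markers summed to 19.4 to 31.2 CPM against 7.94 to 15.7, and the astrocyte markers to 8899 to 10003 CPM against 4780 to 6304, with 2 called where 8.69% of all genes were. Neutrophil sums in the kainate EZ were 24.8 to 41.7 CPM at day 3 against 11.8 to 25.1, with overlap, and 45.4 to 189 CPM at day 7 against 9.98 to 13.9. B cell sums in the kainate EZ were 6.92 to 29.6 CPM at day 3 against 17.9 to 35.4 and 36.6 to 58.3 CPM at day 7 against 24.3 to 42.4, both with overlap. Of the 10 neutrophil markers, 4 were tested and 1 was called in the PIZ at day 3, Csf3r, which microglia also express. The part of these cells in the results was not tested.

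**Figure D4:**
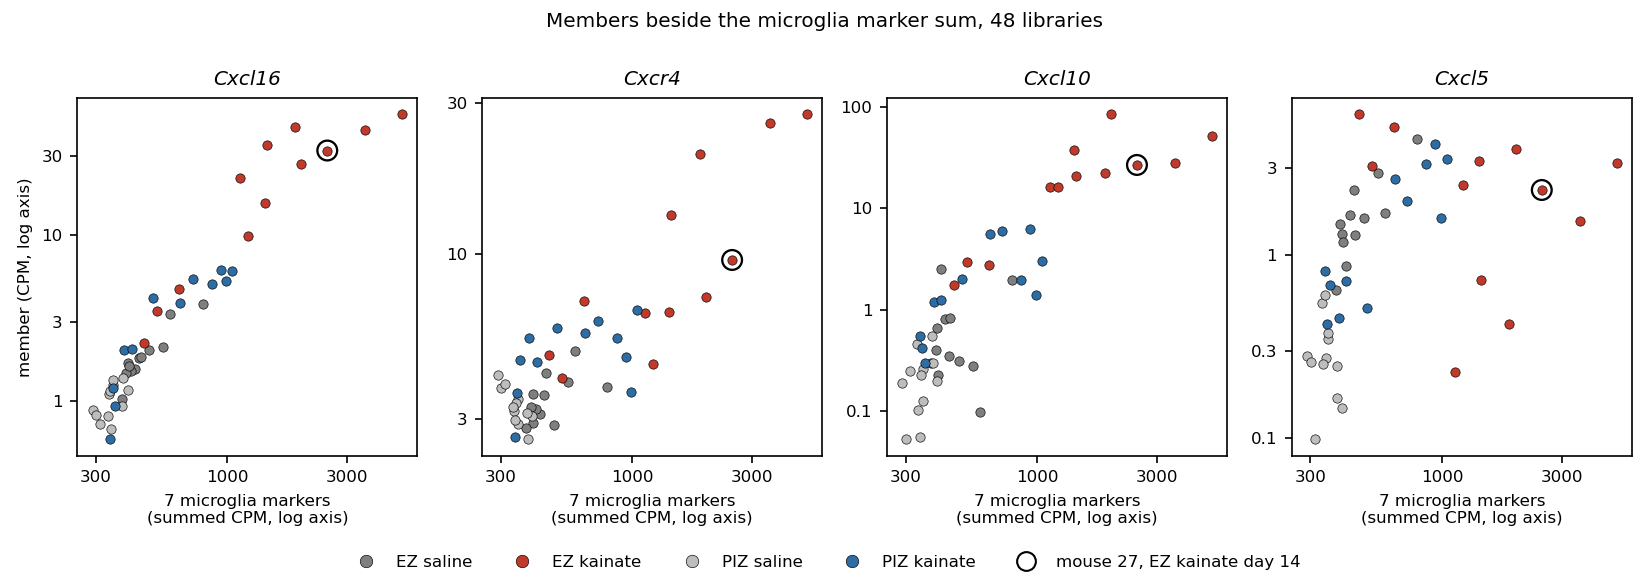
Cxcl16, Cxcr4, Cxcl10 and Cxcl5 (CPM, log axis) against the summed CPM of 7 microglia markers (log axis) in 48 libraries, colored by region and injection, with mouse 27 in the day 14 kainate EZ circled. Cxcl16 climbs with the markers, and in kainate EZ libraries Cxcl5 ranges from 0.230 to 5.90 CPM.

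Across the 48 libraries, which share region, injection and day, the tested genes with the pattern most like each member (Pearson r of log2 CPM) were listed as a description. Cxcl16 was closest to C1qa (r = 0.986), Cyba (0.985) and Ctsz (0.984), and Cxcl10 to Ifit3 (0.963), Mx1 (0.960) and Bst2 (0.956). Cxcr4 was closest to Dhrs3 (0.945), Cxcl9 to Ccl5 (0.911), Cxcl13 to Iigp1 (0.894) and Cxcl12 to Glul (0.889). Cxcl5 (Glycam1, 0.715, Ccdc190, 0.712, and Siglech, 0.705) and Cxcl14 (Gm29216, 0.653) had no gene as close. Among the members themselves r was 0.915 for Cxcl10 with Cxcl16 and 0.874 for Cxcl16 with Cxcr4.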

How the data were processed

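RNA sequencing of 48 dorsal dentate gyrus libraries (TruSeq Stranded mRNA, polyA, paired ends) was analysed from the deposited counts. The authors trimmed reads with fastp 0.20.1, mapped them to GRCm39 with HISAT2 2.2.1 and counted them per gene, by strand, with featureCounts (Subread 1.6.4); these raw counts are whole numbers and not normalized. Groups came from the labels for tissue, treatment and time. Ages differ between the series' design text, used here, and the methods.

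Here genes were filtered with filterByExpr (minimum count 10), scaled by TMM and fitted with edgeR 4.0.16 (R 4.3.3) as 12 group means, with quasi-likelihood tests and Benjamini-Hochberg adjustment over 21390 genes. Calls needed an adjusted p under 0.01 and a fold change above 1.5. CPM used no prior count, and log2 CPM a prior count of 2. All 8 members passed the filter, so no single-gene permutation test was needed. A group total of 0 was replaced by a floor of 3 counts. Positions, exonic lengths and the bases before each gene's 5′ end came from GRCm39 with Gencode M39, which matched 98.9% of rows by identifier. Both sides of a mouse share its number: the residual correlation of a mouse's libraries was -0.0536 to 0.376, over 0.1 in 20 of 24 mice, and pairing rests on the shared mouse.

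The genes named were the 8 members, the other CXC ligands and receptors, up to 4 called genes of each pathway list and the 3 closest genes by correlation; Cajal-Retzius markers were named after their values were seen. The members and lists were chosen with earlier results of these data known. Alternatives were DESeq2 1.42.0, limma-voom with a quality weight for each library (limma 3.58.1), RLE or library-size scaling, no filter, only the groups compared, an adjusted p under 0.05, a test against the fold threshold, a replicate block by mouse, and leaving out each mouse. The fit was checked on simulated data.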

Additional observations from a re-analysis of the deposited data

Results flagged for a closer look

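On log2 CPM, in 4 of 96 groups of 4 libraries the highest or lowest library lay farther from the others than Dixon's 95% limit, and chance gives about 1 in 20. On linear CPM, a scale added after the data were seen, 10 did, these 4 among them. Cxcl5 was lowest in mouse 20 of the saline PIZ at day 7, at 0.164 CPM (3 counts). Cxcl13 was above 0 only in mouse 33 of the saline EZ at day 7, at 0.0434 CPM (1 count), and in mouse 36 of the kainate PIZ at day 14, at 0.0854 CPM (2 counts), within those groups. With the other 3 libraries at 0, any count passes the limit. Cxcl14 was lowest in mouse 20 of the saline EZ at day 7, at 48.7 CPM (954 counts). Passing on the linear scale only were mouse 27 of the kainate EZ at day 14 for Cxcl9 (5.71 CPM), Cxcl10 (26.9), Cxcl13 (6.43) and Cxcl16 (32.3), and, in the saline EZ at day 3, mouse 41 for Cxcl9 (0.292 CPM) and mouse 29 for Cxcl10 (1.98 CPM).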

How the results depend on the processing

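Over the single-gene results 1028 alternative values kept direction and side of the threshold, 48 lost the call, 30 gained it and 16 changed sign. Called members in the EZ numbered 7 at day 3 with limma-voom, counting Cxcl5, for which it is no test, and at day 14 were 0 with only the groups compared, 1 with limma-voom and 5 with DESeq2, which also called 5 in the PIZ at day 3. In the PIZ at day 7 they were 3 at an adjusted p under 0.05, 4 with limma-voom and 3 with DESeq2. For the EZ change minus the PIZ change they were 0 at day 3 with only the groups compared, and at day 7 were 2 at an adjusted p under 0.05, 1 with only the groups compared, 3 with limma-voom and 1 with DESeq2. Between days in the EZ, limma-voom called 2 (day 7 minus day 3) and 4 (day 14 minus day 7). Saline sides at day 3 had 0 called with glmTreat and 0 with the replicate block by mouse (Cxcl5 3.20); in both day 3 comparisons the gene concerned is Cxcl5, selected on these values, so its counts here are a description and no test. Paired by mouse, Cxcl16 at day 7 was 2.38 (edgeR adjusted p = 0.0110) and Cxcr4 1.12 (edgeR adjusted p = 0.0679); the block changed no other call. Leaving out each mouse gave 3 to 5 called in the EZ at day 3, 5 to 6 at day 7 and 0 to 4 at day 14; 3 to 4, 0 to 1 and 0 to 0 in the PIZ; 0 to 1, 0 to 2 and 0 to 0 for the difference between sides; 0 to 1 for both EZ day changes, 0 to 0 for both PIZ day changes and 0 to 0 for the saline sides on each day. Cxcl5 is the fifth call in the EZ at day 3 (without kainate mouse 44), is among the PIZ day 3 calls and is the call of the EZ day 7 minus day 3 change, so in these counts too it is no test. The EZ day 7 counts include Cxcl9 and Cxcl13, for which that same group met the filter, and are no test of them. Without kainate mouse 23, Cxcl16 (edgeR adjusted p = 0.00898) and Cxcr4 (0.00991) differed between sides at day 7, and without kainate mouse 21 Cxcl10 was called in the PIZ at day 7 (0.00970). Sign changes, all of uncalled values, were as follows. Leaving out each mouse moved the side difference of Cxcl12 at day 14 from -0.0829 to 0.174, Cxcl14 in the EZ at day 7 from -0.0577 to 0.235, in the PIZ at day 7 from -0.133 to 0.0118 and at day 14 from -0.216 to 0.0806, its side difference at day 3 from -0.0869 to 0.0832, and Cxcl16 in the PIZ at day 14 from -0.163 to 0.461. With limma-voom Cxcl14 was -0.0794 in the EZ at day 7 and -0.0729 as the side difference at day 7, and Cxcl16 -0.176 in the PIZ at day 14. With library size only the side difference of Cxcl14 at day 3 was 0.0223. The causes were not tested. Cxcl9 and Cxcl13 had 0 counts in 18 and 26 of 48 libraries, and whether depth or absence of the RNA gives a 0 was not tested.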
